A study of Homo sapiens with 3 samples.

Results

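GAP43, STMN2, STMN3, STMN4, DCX, MAP1B, MAP2, MAPT, TUBB3 and CRMP1 encode proteins of the growing neurite, the process from which axons and dendrites form, and most of these proteins bind microtubules or tubulin. The 10 genes were taken by name, and their values are those of the 25 probe sets that name one of them alone, out of 41091 probe sets naming a single gene and 19775 genes so measured. These genes, and the lists set beside them, were chosen with earlier results of these data known. Counts of calls given beside the share of all genes therefore describe the chosen genes and are no independent support. The 3 samples were IMR-32 and NGP, which are established neuroblastoma cell lines, and a pool of mRNA from 16 different cancer cell lines, called Reference. Each was hybridized to 1 Affymetrix U133 Plus 2.0 array, and all cells were untreated and in regular growth medium. NGP was grown in RPMI 1640 medium and IMR-32 in Minimum Essential Medium, both with fetal bovine serum, so that line and medium cannot be told apart. The 16 lines of Reference are not named in the sources used here, and a ratio over Reference also moves with what those lines express. Each line comes from 1 tumour, so the values describe these lines and not neuroblastomas in general.

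Values are linear MAS5 signals, scaled so that the mean of every array is 500 once 2% of the signals at either end are set aside. A gene's ratio is the median log2 ratio over its probe sets, and the highest 7% of the genes in a comparison were called overexpressed and the lowest 7% underexpressed. The upper cut-off was 1.68 (3.21-fold) for IMR-32 over Reference and 1.84 (3.59-fold) for NGP over Reference, and the lower ones were -2.83 and -2.88. The median over all genes was -0.23 and -0.22. No sample was hybridized again, so no difference has a replicate check, no test was possible, and the number of arrays limits the precision. The only spread that can be given is that between probe sets of a gene, with a standard deviation over all genes of 1.31 for IMR-32 over Reference and 1.41 for NGP over Reference. Probe sets differ in their response, so ratios were taken between samples within a probe set and never between probe sets. Array medians serve only to mark low signals. A summed signal adds the median signal of each gene of a list over its probe sets, and is compared only between samples.

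A neurite advances at its growth cone, where membrane and actin remodelling at the leading edge is coupled to the growth of microtubules from behind. Microtubules are polymers of tubulin, which grow and shrink at their ends. Structural microtubule-associated proteins bind along the lattice and stabilise it, whereas stathmins bind free tubulin and favour shrinkage. Neuroblastoma arises from sympathetic precursor cells of the neural crest, which extend neurites as they differentiate, and GAP43, STMN2 and MAP2 are widely used as marks of that process in neuroblastoma cells.

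GAP43 and CRMP1 of the growth cone, the stathmin STMN2 and the lattice-binding MAP1B and MAP2 were overexpressed in each neuroblastoma line over Reference, by 3.95-fold to 22.8-fold, whereas STMN4, MAPT and TUBB3 were not called in either. Of the 10 genes, 6 were overexpressed in IMR-32 over Reference (GAP43, STMN2, STMN3, MAP1B, MAP2 and CRMP1), where the threshold calls 7.0% of all genes at each end. In NGP over Reference 6 were overexpressed as well (GAP43, STMN2, DCX, MAP1B, MAP2 and CRMP1), again against 7.0% of all genes. None was underexpressed in either comparison, where the bottom 7% likewise holds 7.0% of all genes. Their median lay at 1.84 for IMR-32 (3.58-fold, from -0.20 to 3.13) and at 2.86 for NGP (7.24-fold, from -1.71 to 4.51). Both ratios are taken over the same Reference array, so they are not independent of each other.

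Agreement between probe sets was counted separately. For 6 of the 9 genes with several probe sets (GAP43, STMN2, STMN3, DCX, MAP1B and MAP2) every probe set was higher in IMR-32 than in Reference by at least 1 on the log2 scale, which held for 4.73% of the 10523 genes with several probe sets. For NGP over Reference it was 6 of 9 (GAP43, STMN2, STMN3, DCX, MAP1B and MAP2) against 5.30% of such genes. CRMP1 has 1 probe set and could not be counted.

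**Figure D1:**
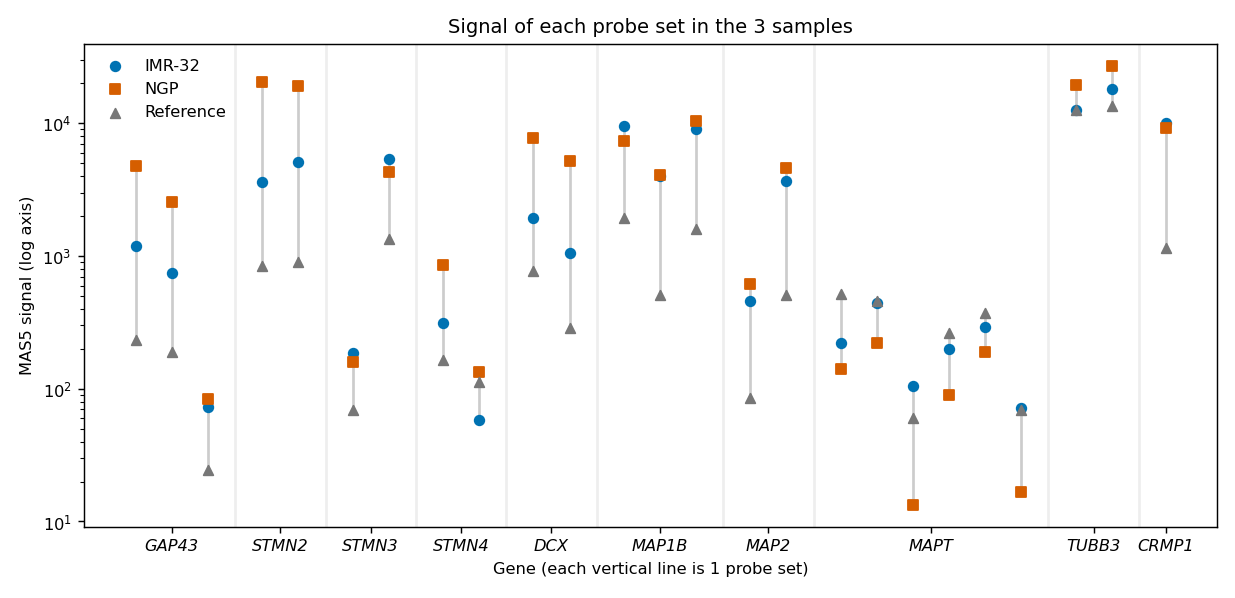
MAS5 signal on a log axis of each of the 25 probe sets of the 10 genes in IMR-32 (circles), NGP (squares) and Reference (triangles), 1 array each, so no error bar can be drawn. Within a vertical line, which is 1 probe set, NGP stands highest for GAP43, STMN2 and DCX, the lines lie close together for MAP1B, MAP2 and CRMP1, and NGP stands lowest at all 6 probe sets of MAPT.

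GAP43, the growth-associated protein of the growth cone membrane, was overexpressed in both lines and higher in NGP. Its gene lies on chromosome 3 (115623510 to 115721483 in GRCh38.p14). The probe set 204471_at read 1201 in IMR-32, 4804 in NGP and 233 in Reference. The probe set 216963_s_at read 746, 2539 and 189 in the same order. At both, NGP was highest and Reference lowest. The third, 216967_at, was dim, with 72.6, 83.4 and 24.5, each below the median signal of its array (89.9 in IMR-32, 98.8 in NGP and 119 in Reference), and there the lines differed by only 0.20 (log2). The gene's ratio over Reference was 1.98 in IMR-32 (3.95-fold), with 5.12% of genes above it, and 3.75 in NGP (13.5-fold), with 0.753% above it. The call in IMR-32 was lost at the top 5% of genes, whose cut-off lay at 2.01, and with cut-offs over single probe sets.

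STMN2, which encodes the stathmin of growing neurons also known as SCG10, had the highest ratio of the 10 genes in NGP. It lies on chromosome 8 (79611117 to 79666158). The probe set 203000_at read 3609 in IMR-32, 20420 in NGP and 838 in Reference. The probe set 203001_s_at read 5129, 19259 and 902. Both thus placed the samples in the order Reference, IMR-32, NGP. The ratio over Reference was 2.31 in IMR-32 (4.95-fold) and 4.51 in NGP (22.8-fold), where the gene ranked 47 of 19775.

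The other stathmins showed smaller differences. STMN3, a neuronal stathmin of chromosome 20 (63639712 to 63653424), read 5348 in IMR-32, 4305 in NGP and 1356 in Reference at 222557_at, and 185, 158 and 69.7 at 218207_s_at. Both lines stood above Reference at both probe sets, and IMR-32 was the higher. Its ratio of 1.69 in IMR-32 (3.24-fold) lay just above the cut-off of 1.68, and the one in NGP, 1.42 (2.68-fold), lay below that line's cut-off. The call in IMR-32 was lost with quantile-normalized signals, with dim probe sets left out, at the top 5% and with cut-offs over single probe sets.

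STMN4, a further neuronal stathmin (chromosome 8, 27235308 to 27258404), was not called in either line, though it passed the cut-off in NGP with the brightest probe set (2.38). The probe set 221236_s_at read 315 in IMR-32, 859 in NGP and 165 in Reference, whereas 236812_at read 58.5, 134 and 112. The probe sets agree that NGP was higher than IMR-32, but in IMR-32 one lay above Reference by 0.93 and the other below it by 0.94 (log2 ratios of 0.93 and -0.94). The gene's ratio was -0.00 in IMR-32, or 0.23 once ratios were centred on the median of all genes, and 1.32 in NGP. STMN1, the stathmin of dividing cells, had ratios of 0.11 and 0.65 and was not called in either line.

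DCX encodes doublecortin, which binds the microtubule lattice in migrating and young neurons. The gene lies on chromosome X (111293779 to 111412192). The probe set 204850_s_at read 1928 in IMR-32, 7804 in NGP and 773 in Reference. The probe set 204851_s_at read 1052, 5203 and 287. NGP was the highest sample and Reference the lowest at both. The ratio of 3.76 in NGP (13.5-fold) left 0.748% of genes above it, whereas that of 1.59 in IMR-32 (3.02-fold) fell just short of the cut-off, and passed it with log2(signal + 32) and at the top 10%. Of the related kinases with a doublecortin domain, DCLK1 was overexpressed in both lines (2.11 and 3.27), and DCLK2 had ratios of -2.03 and -2.12, which were not called. The median signals of DCLK2 were 26.8 in IMR-32 and 15.7 in NGP, below the array medians. Its probe sets in NGP over Reference ran from -3.11 to 0.17.

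MAP1B, a microtubule-associated protein of growing axons, differed little between the lines and was overexpressed in each. It lies on chromosome 5 (72107475 to 72209565). The probe set 212233_at read 9484 in IMR-32, 7371 in NGP and 1939 in Reference. The probe set 226084_at read 9106, 10497 and 1606. The third, 214577_at, read 4006, 4076 and 508. Reference was the lowest sample at all 3, and the order of the lines changed from one probe set to another. The ratio was 2.50 in IMR-32 (5.67-fold) and 2.71 in NGP (6.53-fold).

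MAP2, the structural protein of dendritic microtubules, gave a like picture. It lies on chromosome 2 (209424047 to 209734112). The probe set 225540_at read 3677 in IMR-32, 4618 in NGP and 508 in Reference. The probe set 210015_s_at read 456, 613 and 84.9, with the samples in the same order. The ratios were 2.64 in IMR-32 (6.23-fold) and 3.02 in NGP (8.11-fold).

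MAPT, which encodes tau, the axonal relative of MAP2, was lower in NGP than in the other samples without passing the cut-off. The gene lies on chromosome 17 (45894554 to 46028334) and has 6 probe sets. The brightest, 203929_s_at, read 441 in IMR-32, 222 in NGP and 456 in Reference, and 203928_x_at read 223, 141 and 519. At 225379_at the signals were 294, 188 and 375, and at 206401_s_at 198, 90.6 and 264. The remaining pair was dimmer in NGP, with 105, 13.4 and 60.6 at 203930_s_at and 71.5, 16.7 and 68.7 at 233117_at. These 2 signals in NGP, and the 90.6 at 206401_s_at, lay below the array median (98.8) and were not shown to be above background. NGP was the lowest sample at all 6 probe sets, and IMR-32 lay on either side of Reference. In NGP the ratios ran from -2.18 to -1.0 with a median of -1.71, a signal 3.27-fold lower than in Reference, with 84.0% of genes above it and outside the bottom 7%. That median became -1.29 with dim probe sets left out and -1.04 with log2(signal + 32), so the size of the difference depended on dim signals. In IMR-32 the ratios ran from -1.22 to 0.80, and the median of -0.20 turned to 0.03 when ratios were centred on the median of all genes.

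**Figure D2:**
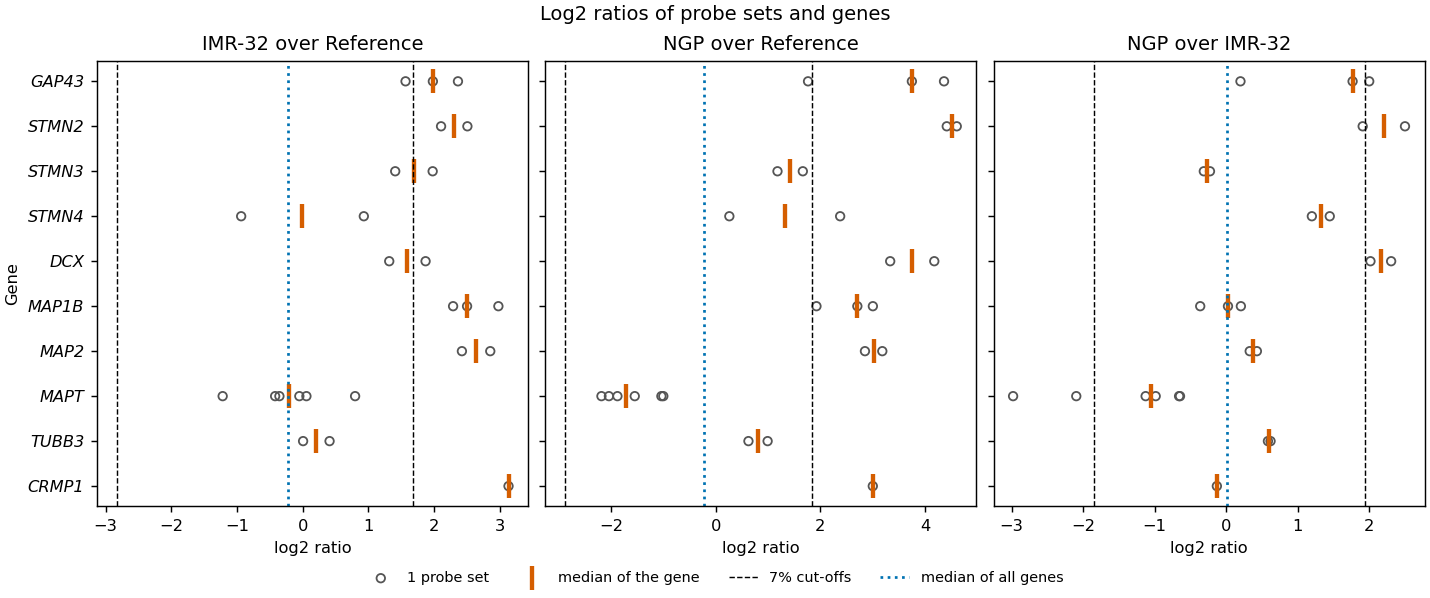
Log2 ratios of the 10 genes in 3 panels, IMR-32 over Reference, NGP over Reference and NGP over IMR-32. Circles are single probe sets, bars the median of the gene, dashed lines the 7% cut-offs and dotted lines the median of all genes. MAPT lies on the low side in NGP at all 6 probe sets, and the 2 circles of STMN4 lie on both sides of 0 in IMR-32.

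TUBB3 encodes the class III beta-tubulin of neurons. It lies on chromosome 16 (89921925 to 89936097), and both probe sets were bright in every sample. The probe set 202154_x_at read 12633 in IMR-32, 19416 in NGP and 12571 in Reference. The probe set 213476_x_at read 18081, 27094 and 13610. NGP was highest at both, while IMR-32 and Reference lay together at the first. The ratio was 0.21 in IMR-32 (1.16-fold) and 0.81 in NGP (1.75-fold), neither of which was called. The suffix _x_at marks probes that can also bind other transcripts, here possibly those of other tubulin genes, so the signal cannot be assigned to TUBB3 alone with certainty.

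Of the 13 tubulin genes measured, TUBB2B, another beta-tubulin of the nervous system, was the only one overexpressed in IMR-32 (3.57), and the only one in NGP (4.16). Its signals were 11968 in IMR-32, 18083 in NGP and 1009 in Reference. TUBA4A had the lowest ratio in both lines, -3.16 in IMR-32, where it was underexpressed, and -2.32 in NGP. Their median was -0.27 for IMR-32 and 0.24 for NGP.

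CRMP1, a collapsin response mediator protein, relays guidance signals to the cytoskeleton of the growth cone. It lies on chromosome 4 (5820764 to 5893086). Its probe set, 202517_at, read 10118 in IMR-32, 9242 in NGP and 1153 in Reference, so that the lines lay together and Reference well below. The ratio of 3.13 in IMR-32 (8.78-fold) was the highest of the 10 genes in that line, and that in NGP was 3.00 (8.02-fold). The relatives of CRMP1 are the DPYSL genes. DPYSL2, which binds tubulin dimers and promotes axon formation, was overexpressed in both lines (3.10 and 3.40). DPYSL3 had ratios of 0.31 and 1.71 and was not called. Of the 5 genes of this family 3 were overexpressed in IMR-32 and 4 in NGP, against 7.0% of all genes, with medians of 2.63 and 2.01. The others called, named after their values were seen, were DPYSL4 in both lines (2.63 and 2.01) and DPYSL5 in NGP (1.87).

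The sequence before the start is shown for 4 genes that were overexpressed in NGP over Reference, since these windows differ widely among themselves. They are the 250 bases before the start of the first transcript, in GRCh38.p14, from the promoter table made from RefSeq, and are written 5′ to 3′ on the strand of the gene. Capitals mark GGGCGG (the letters bound by SP1), TATAAA (the letters bound by the TATA-binding protein) and CCAAT, searched on both strands, so that a match on the other strand appears as its reverse complement. The windows are chr3:115623260-115623509 (plus strand) for GAP43, chrX:111412193-111412442 (minus strand) for DCX, chr5:72107225-72107474 (plus strand) for MAP1B and chr4:5893087-5893336 (minus strand) for CRMP1.
GAP43: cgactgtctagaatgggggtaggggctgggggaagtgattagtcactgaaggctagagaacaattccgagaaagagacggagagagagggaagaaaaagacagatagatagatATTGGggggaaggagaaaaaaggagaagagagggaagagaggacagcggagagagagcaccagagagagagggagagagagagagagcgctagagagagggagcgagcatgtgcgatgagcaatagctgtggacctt
DCX: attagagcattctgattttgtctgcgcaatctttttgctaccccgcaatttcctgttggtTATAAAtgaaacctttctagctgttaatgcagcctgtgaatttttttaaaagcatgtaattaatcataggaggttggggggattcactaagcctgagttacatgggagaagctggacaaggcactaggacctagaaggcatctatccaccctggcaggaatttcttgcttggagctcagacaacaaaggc
MAP1B: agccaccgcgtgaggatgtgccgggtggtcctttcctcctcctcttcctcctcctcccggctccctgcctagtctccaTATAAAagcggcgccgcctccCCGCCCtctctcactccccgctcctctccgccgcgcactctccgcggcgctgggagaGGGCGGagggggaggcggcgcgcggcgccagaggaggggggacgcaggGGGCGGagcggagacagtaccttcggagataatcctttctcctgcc
CRMP1: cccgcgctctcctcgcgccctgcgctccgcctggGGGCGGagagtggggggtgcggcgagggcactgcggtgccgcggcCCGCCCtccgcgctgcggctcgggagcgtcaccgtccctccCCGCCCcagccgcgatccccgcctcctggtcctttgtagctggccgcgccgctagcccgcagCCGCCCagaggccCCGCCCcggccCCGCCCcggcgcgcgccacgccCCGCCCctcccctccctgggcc

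Their GC content was 51.6% for GAP43, 42.8% for DCX, 70.0% for MAP1B and 82.8% for CRMP1, against a median of 58.0% over all 35116 starts in the table. GGGCGG occurs 3 times before MAP1B and 7 times before CRMP1, and has no match before GAP43 or DCX. TATAAA occurs 1 time before DCX and 1 time before MAP1B. Over all 16 starts of the 7 members with an entry, GGGCGG was found in 8, TATAAA in 3 and CCAAT in 4, while 42.6%, 10.7% and 32% of all starts hold them. CACGTG, the letters bound by MYC family proteins, was found in 1 of the 16, a start of CRMP1, and in 6.34% of all starts. STMN2, STMN4 and MAPT have no entry. A match is a description of letters and not a binding site.

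The lines were also compared directly, without Reference. The median log2 ratio of NGP over IMR-32 was 0.49 for the 10 genes (1.40-fold, from -1.06 to 2.20) and 0.02 for all genes. The genes separate into those higher in NGP (GAP43, STMN2, STMN4 and DCX), those near equal (STMN3, MAP1B, MAP2 and CRMP1, from -0.27 to 0.38), TUBB3 with 0.60 and MAPT with -1.06. STMN2 (2.20, 4.61-fold) and DCX (2.16, 4.48-fold) were overexpressed in NGP over IMR-32, past a cut-off of 1.95 (3.86-fold) that calls 7.0% of all genes. GAP43 (1.77, 3.40-fold) and STMN4 (1.32, 2.50-fold) did not reach it. None of the 10 was among the 7.0% underexpressed, the lower cut-off being -1.84, and MAPT was 2.08-fold lower in NGP, with probe sets from -2.98 to -0.65. For STMN2, STMN4 and DCX every probe set was higher in NGP by at least 1 (log2), 3 of 9 genes against 4.57% of those with several probe sets. This comparison depended on the setting, since the 2 calls became 0 with the brightest probe set of each gene and 4 with log2(signal + 32).

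**Figure D3:**
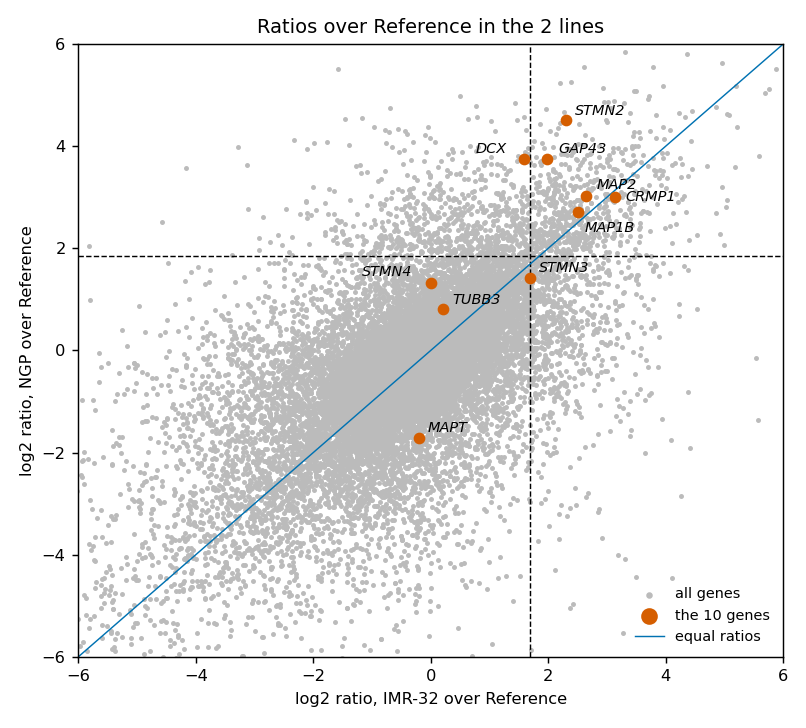
Log2 ratio over Reference in NGP (vertical axis) against that in IMR-32 (horizontal axis) for all genes (grey) and the 10 genes (orange), with 197 genes outside the axes. Dashed lines are the upper 7% cut-offs and the diagonal marks equal ratios, above which STMN2, GAP43, DCX and STMN4 lie by 1.32 to 2.20. Both axes share the Reference array, so the slope of the grey cloud is not a result.

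Other proteins of the growth cone and the microtubule lattice did not all follow these genes. Of the 11 growth cone membrane proteins measured, GAP43 included, 5 were overexpressed in IMR-32 and 2 in NGP, against 7.0% of all genes. The medians were 1.27 and 1.09. BASP1, a membrane protein with properties like those of GAP43, was overexpressed in both (2.48 and 2.52). The others in IMR-32, named after their values were seen, were MARCKS (1.99), L1CAM (1.96) and GPM6A (1.89). The 3 probe sets of GPM6A ran from 0.75 to 4.59 in IMR-32 over Reference, and only 1 of them reached the array median in some sample. The median signal of GPM6A lay below the array median in each sample, so the size of its ratio is uncertain. NRN1, which promotes neurite outgrowth, had ratios of -1.69 and 0.11, and GPM6B of -0.28 and -0.68. Among 13 lattice-binding proteins, MAP1B, MAP2 and MAPT included, 4 were overexpressed and 1 underexpressed in IMR-32, and 2 and 1 in NGP. Their medians were 0.16 and 0.19. Each end holds 7.0% of all genes, so 1 call among 13 is near that share. Of the 10 others, 2 were overexpressed in IMR-32 and none in NGP.

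In that list 2 genes were called underexpressed in NGP over IMR-32, MAP7D2 and MAP6, while MAP1A (-1.60), MAPT and MAP6D1 (-0.61) were lower at every probe set without a call. MAP7D2 read 971 in IMR-32, 22.2 in NGP and 188 in Reference at its only probe set. It was thus overexpressed in IMR-32 (2.37) and fell within the bottom 7% in NGP, where its signal lay below the array median and was not shown to be above background, so that no size is given for that difference. MAP6, which makes microtubules resistant to cold, was overexpressed in IMR-32 (2.76) but not in NGP (0.51), and its 4 probe sets ran from -2.62 to -1.53 for NGP over IMR-32. MAP7, which recruits kinesin to microtubules, was underexpressed in IMR-32 (-2.87) and had a ratio of -1.98 in NGP.

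**Figure D4:**
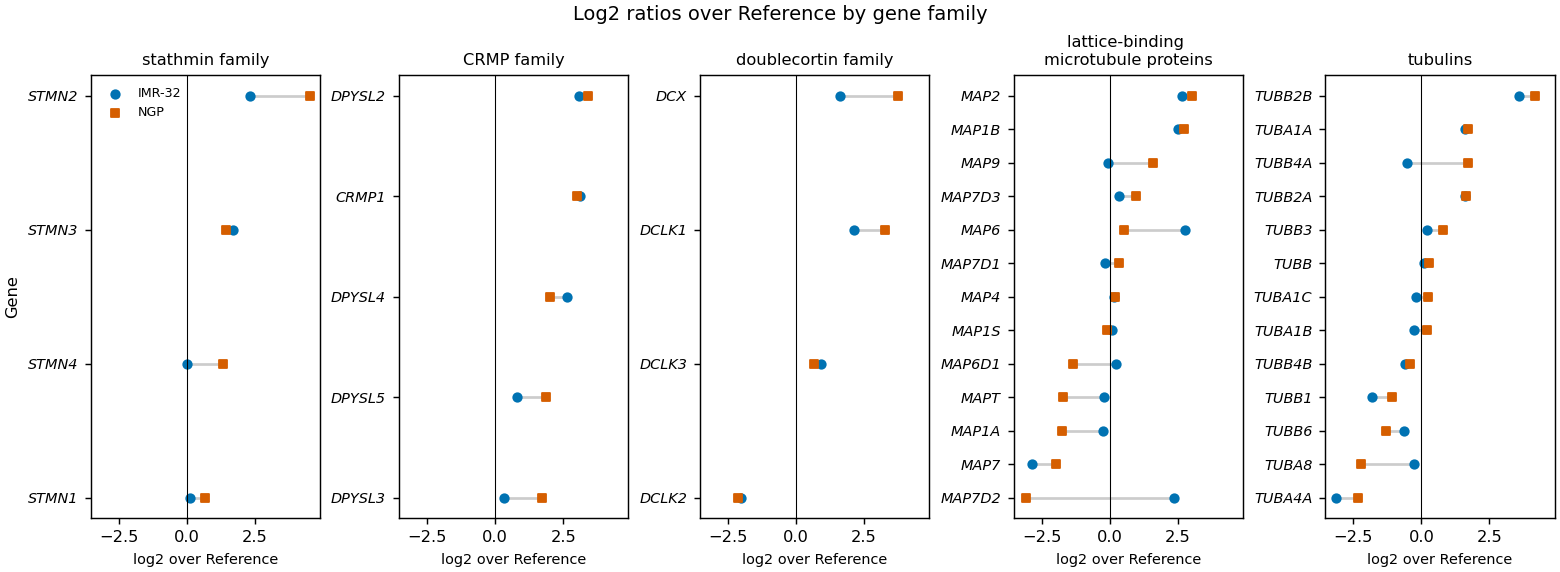
Log2 ratio over Reference in IMR-32 (circles) and NGP (squares) of every measured gene of the stathmin, CRMP and doublecortin families, the lattice-binding proteins and the tubulins, 1 array per sample. The panels share 1 scale, and the longest line is that of MAP7D2, whose signal in NGP was dim.

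Lists of proteins that track growing ends, sever microtubules or modify tubulin are given as counts, where the threshold calls 7.0% of all genes at each end, so that 1 call among 14 or 16 genes is near the background. Of 14 plus-end tracking proteins 1 was overexpressed in IMR-32 and 2 in NGP (medians 0.28 and 0.75). They included SLAIN1, overexpressed in IMR-32 (2.41, against 0.51 in NGP), and CLIP1, which links growing ends to cargo, overexpressed in NGP (2.20, against -0.20 in IMR-32). The 6 probe sets of CLIP1 ran from -0.59 to 2.92 in NGP over Reference. The authors report CLIP1, under the name RSN, in a region amplified in NGP. Whether copy number had a part in its ratio was not tested. CLIP3 was the other call in NGP (2.01, named after its value was seen). Its value there is the midpoint of probe sets at -0.34 and 4.37, so they did not agree. Of 6 severing proteins none was overexpressed in IMR-32 and 1 was in NGP, FIGN (3.16, against 0.15 in IMR-32), with medians of 0.56 and 0.26. SPAST, the severing enzyme spastin, had a ratio of 1.68 in IMR-32 and was not called. Among 16 tubulin modifying enzymes 1 was overexpressed in each line, AGTPBP1, which shortens the polyglutamate chains of tubulin (2.54 and 2.47), and 1 underexpressed in each, TTLL6, named after its values were seen, whose signals (12.7 in IMR-32, 10.5 in NGP and 112 in Reference) lay below the array median in all 3 samples. The medians were -0.18 and 0.34.

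Of 15 motor subunits of axonal transport 2 were overexpressed in IMR-32 and 3 in NGP (medians 0.06 and 0.99), against 7.0% of all genes. KIF21A was called in both lines (2.94 and 2.05), as was KIF5C, named after its values were seen (1.82 and 2.16). KIF1A, which carries synaptic vesicle precursors, was called in NGP (2.70, against 0.89 in IMR-32), where its 3 probe sets ran from 0.20 to 2.97. DYNC1I1, an intermediate chain of cytoplasmic dynein, had ratios of -2.35 and 0.39 and was overexpressed in NGP over IMR-32 (2.75). Over Reference its 2 probe sets did not agree, with -4.34 and -0.36 in IMR-32 and -1.09 and 1.88 in NGP. Both were higher in NGP than in IMR-32, by 2.24 and 3.25. Of 12 kinases that phosphorylate microtubule-associated proteins, or their activators, 1 was overexpressed in IMR-32 and 2 in NGP (medians 0.47 and 0.42). With 7.0% of all genes called at each end, 1 call among 12 genes is near that share. CDK5R1, the neuronal activator of the kinase CDK5, was overexpressed in both lines (1.79 and 2.00), and MAPK8, the kinase JNK1, in NGP (2.05, against 1.62 in IMR-32).

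ELAVL proteins bind and stabilise neuronal transcripts, that of GAP43 among them. Of the 4 genes 3 were overexpressed in IMR-32 and 2 in NGP, against 7.0% of all genes, with medians of 2.45 and 2.69. ELAVL4 had ratios of 3.44 and 3.67 and ELAVL3 of 2.60 and 3.76, and these were overexpressed in both lines, as was ELAVL2 in IMR-32 alone (2.29, against 1.70 in NGP, named after its values were seen), whereas ELAVL1, which is made in most cell types, had 0.98 and 1.47 and was not called.

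The genes nearest to GAP43 and STMN2 were sought by the distance between pairs of ratios over Reference, 1 pair per gene from the 2 lines, among 9508 genes whose signal reached the array median in both lines. Nearest to GAP43 were RTN1, a reticulon of neuronal endoplasmic reticulum, at a distance of 0.0214 (ratios 2.00 and 3.74), SYCP2L, ZNF536, PHYHIPL and, at 0.163, SNAP25, the synaptic fusion protein (1.88 and 3.63). Nearest to STMN2 were TMEM255A at 0.131, SLC7A14, OLFM3, ATCAY and, at 0.410, SLC10A4. With 2 ratios per gene and a shared Reference array these distances rank genes and nothing more.

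The labelled cell type was set against marker genes. Of 10 sympathetic neuroblast genes 5 were overexpressed in IMR-32 and 8 in NGP, against 7.0% of all genes. HAND2, ISL1, DDC and CHGA were among them in each line. For DDC in IMR-32 the value (1.94) is the midpoint of probe sets at 0.25 and 3.62, which did not agree. The medians of the 10 neuroblast genes were 1.78 and 2.91, and the summed signals 23737 in IMR-32, 52598 in NGP and 7219 in Reference. PHOX2A, a transcription factor of that lineage, had ratios of 3.26 and 3.86. TH, the first enzyme of catecholamine synthesis, had -1.40 in IMR-32 and 4.01 in NGP. In IMR-32 only 6 of the 10 lay above Reference, and GATA2 (-1.34), DBH (-0.33) and CHGB (-0.01) lay below it with TH, whereas all 10 lay above it in NGP. In NGP these genes were thus higher than in IMR-32 (median 1.14) along with STMN2, DCX and GAP43, and their part in those differences was not tested.

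Epithelial transcripts were far higher in Reference than in the lines. All 5 epithelial genes were underexpressed in both lines (medians -7.45 and -7.80), against 7.0% of all genes. Their summed signal was 371 in IMR-32, 284 in NGP and 56210 in Reference. Of 9 mesenchymal genes 1 was overexpressed and 2 underexpressed in each line, against 7.0% of all genes at each end. TWIST1 was the one overexpressed (2.44 and 2.81), and COL1A2 had the lowest ratio (-4.91 and -3.80). The medians of these 9 genes were -2.37 in IMR-32 and -0.99 in NGP, with 1 and 2 of them above Reference. The 4 glial and 4 haematopoietic genes summed to at most 213 and 262 in any sample. No probe set of SOX10, S100B, GFAP, PTPRC, CD14 or SPI1 reached the array median. The glial gene ERBB3 did in some sample at 4 of its 5 probe sets, with ratios of -1.29 and -2.21. The haematopoietic gene CD3E read 16.9 in IMR-32, 102 in NGP and 177 in Reference at its only probe set. CD3E was called underexpressed in IMR-32 and overexpressed in NGP over IMR-32. Its signal in IMR-32 lay below the array median and was not shown to be above background, so no size is given for either difference. The 7 housekeeping genes had medians of -0.35 and -0.03 with none called. The signal at the 3′ end over that at the 5′ end lay between 0.867 and 1.02 for the GAPDH control probe sets and between 1.16 and 1.40 for those of ACTB, with IMR-32 lowest for ACTB and NGP lowest for GAPDH. Whether the makeup of Reference had a part in the ratios over it was not tested, and the direct comparison of the lines does not use it.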

How the data were processed

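Gene expression was measured in IMR-32, NGP and Reference, with 1 array each. The authors made the deposited signal intensities from the scanned arrays with MAS5 in the Bioconductor package affy (versions not given in the sources used here). From these, log2 ratios were taken for each probe set with no pseudocount, and a gene's value was the median over its probe sets. Of 54675 probe sets, 62 controls, 1801 naming several symbols in the platform annotation and 11721 naming none were left out. Of the rest, 41037 were matched by gene ID to the RefSeq gene table (GRCh38.p14). Each end held 1384 genes. The members and lists were chosen with earlier results of these data known. Named were all members and the genes nearest to GAP43 and STMN2 (5 each). From each other list, genes were named from the highest and lowest in each line among those with a probe set at or above the array median. Not all of these extremes are named. Other genes of the lists, marker genes included, were named after their values were seen. Some genes of the lists were not analysed here. Values were also computed with ratios centred on the median, after quantile normalization, with 32 added to each signal before log2, without dim probe sets, from the brightest probe set or the mean of a gene, without the types _s_at, _x_at and _a_at, at the top 5% or 10%, and with cut-offs over single probe sets. Dim means that the higher signal of the pair lay below its array median. On simulated data with planted changes, the mean log2 ratio of the changed genes was checked against the change planted. The number of genes called there was not checked. Copy number and FISH data were not analysed here. Python 3.11.15, numpy 2.4.6, pandas 2.3.3 and matplotlib 3.10.9 were used.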

Additional observations from a re-analysis of the deposited data

Results flagged for a closer look

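STMN4 was the only one of the 10 genes whose ratio over Reference had opposite signs in the lines, with a log2 ratio of -0.0021 in IMR-32 and 1.32 in NGP. The difference between the lines was not tested, since there is 1 array per sample. In IMR-32 the value is the midpoint of probe sets at 0.93 and -0.94, and it turned to 0.23 when ratios were centred on the median of all genes.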

How the results depend on the processing

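The number of the 10 genes overexpressed in NGP over IMR-32 was 2. It became 4 with log2(signal + 32), 0 with the brightest probe set per gene, 1 without probe sets ending in _s_at, _x_at or _a_at, 0 at the top 5% and 1 with cut-offs over single probe sets. There are no replicates, so no p-value stands behind a count of 0. The number overexpressed over Reference stayed between 4 and 7 in IMR-32 and between 5 and 7 in NGP (6 in each as reported), and no gene was underexpressed in any comparison under any of the 10 alternatives. The median of the 10 genes lay between 1.67 and 2.17 in IMR-32, between 2.73 and 3.08 in NGP and between 0.18 and 0.49 for NGP over IMR-32. Of 294 values of single genes under an alternative, 275 kept their call or the lack of one, 8 gained a call and 11 lost one. The sign turned in 7 of the 294, all of genes near 0 that were not called (STMN4 and MAPT in IMR-32 over Reference, MAP1B in NGP over IMR-32). STMN2 lost its call in NGP over IMR-32 with the brightest probe set (1.91) and at the top 5%. DCX lost it there and with cut-offs over single probe sets. GAP43 gained one with log2(signal + 32), at the top 10% and with dim probe sets left out (1.88). With log2(signal + 32), STMN3 gained a call in NGP over Reference and STMN4 in NGP over IMR-32. DCX and TUBB3 have only probe sets of the types _s_at and _x_at and gave no value without them. No paired analysis was possible because there is 1 array per sample.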
